A study of Mus musculus with 6 samples.

Results

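RNA-seq of splenic T cells asked which genes differed from wild type in every mouse that carried the *Ikzf3* N159S allele, whether it carried 1 or 2 copies. The 4 carrier libraries, 2 labelled *Ikzf3 +/N159S* (heterozygous) and 2 labelled *Ikzf3 N159S/N159S* (homozygous), were pooled and set against the 2 libraries labelled *Ikzf3 +/+* (wild type), so that all 6 T cell libraries of the series in use here entered. Among 11713 autosomal genes tested, 111 (0.948%) were called as DEGs between carriers and wild type. Of these, 75 were moved alike by 1 and by 2 mutant alleles and are described here one group at a time. The list was chosen by the same read counts, so its counts and medians are a description and not a test.

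All groups shared the C57BL/6 strain, the spleen as source and the sort for TCRb+CD4+CD44-CD127+ T cells, and none was treated beyond the sort. The N159S allele is a CRISPR/Cas9 knock-in missense allele carried in the germline, so every cell lineage of a carrier held it. The labels give no age or sex for these mice and do not say whether a library came from 1 mouse, and p-values therefore measure the spread between libraries as labelled. The sort took CD44- cells that display CD127, so a gene of these surface proteins was part of the gate.

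Aiolos, the product of *Ikzf3*, is a zinc finger transcription factor of the Ikaros family. Its N-terminal zinc fingers bind DNA at sequences with a GGGAA core, and its C-terminal fingers pair it with itself or with Ikaros. In lymphocytes these proteins work with the NuRD chromatin remodelling complex and can hold genes down or keep them active. N159S lies among the DNA-binding zinc fingers. A response to an allele is called dominant where heterozygotes move as far as homozygotes. It is called additive here where they lie midway between wild type and homozygotes on the log2 scale.

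Between 11696461 and 17317260 reads fell on genes in each library. The counts were scaled by TMM, edgeR's correction for library composition, and values below are these normalized counts, with replicate 1 before replicate 2. Differences were tested with edgeR's quasi-likelihood test, adjusted by Benjamini-Hochberg over the 11713 genes (FDR), with calls at an FDR under 0.05. Both heterozygous libraries held *Xist* RNA at 737 and 846 CPM and the other libraries at 0.769 to 1.96 CPM, so genes on chromosomes X and Y were left out. A heterozygous value can therefore not be told apart from a sex-linked difference of those libraries, so a homozygous value or log2 change is given beside most pooled ones.

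Of the 111 DEGs, 67 (0.572% of genes tested) were higher and 44 (0.376%) were lower in carriers. With a 2-level term for more or fewer genes detected, which parted the 2 libraries of each genotype, 83 were higher and 97 lower. With the replicate number as a block 10 were higher and 11 lower. In all 111, the 4 carrier libraries lay on 1 side of both wild-type libraries, which was the case for 27.2% of all genes tested (14.4% above and 12.9% below). A called gene was taken as moved alike only where all 4 carrier libraries lay on 1 side of both wild-type libraries. The difference between homozygous and heterozygous also had to be at most 1/3 of the mean of their log2 changes. That a member does not overlap wild type is thus part of the choice and not a result. A gene additive in log2 has 2/3 on this scale. A rise by equal counts per allele gives less than 2/3, so a large rise of that kind can fall within 1/3. The alike list held 75 genes (0.64% of those tested), 45 higher and 30 lower. Another 34 DEGs were graded, with the homozygous libraries further out, and in 2 (*Capg* and *Lars2*) the heterozygous libraries were further out. A fit that kept a separate level for each genotype and averaged them against wild type called 529 genes (4.52%), 299 higher (2.55%) and 230 lower (1.96%). That fit leaves the difference between the genotypes out of the error, and the pooled fit counts it as spread.

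**Figure D1:**
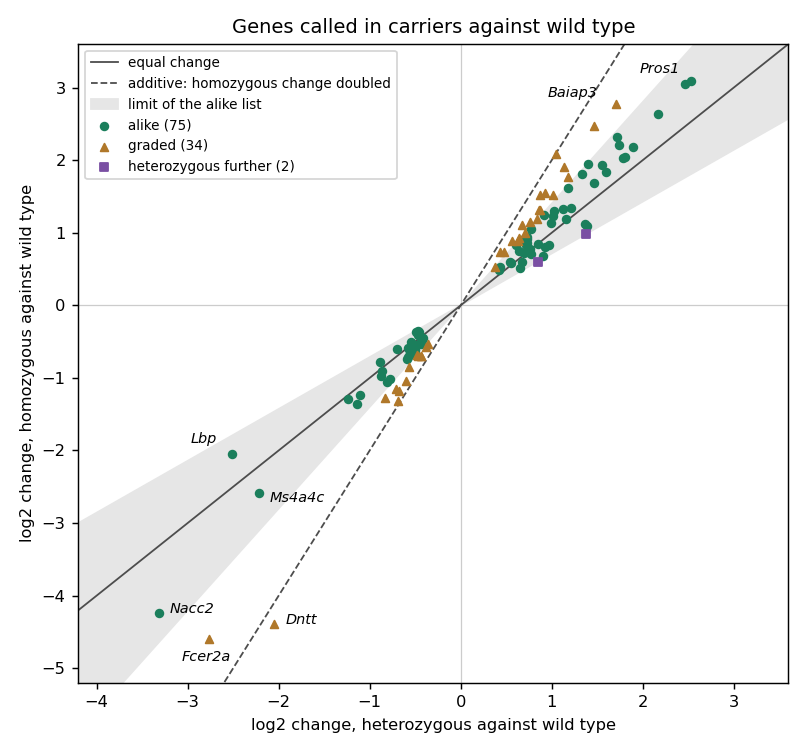
Log2 change against wild type in heterozygous (x axis) and homozygous (y axis) T cells for the 111 genes called in carriers, by class, with the line of equal change, the line of an additive response and the range of the alike list shaded. Both axes share the same 2 wild-type libraries, so points are drawn out along the diagonal by construction; *Nacc2* lies furthest out among the genes that fell.

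The alike genes differed by direction in level and in size of change. The 45 that rose had a median log2 change of 1.07, and 23 of them rose at least 2-fold. The 30 that fell had a median of -0.60, and 6 fell at least 2-fold. The median over all genes tested was 0.01. The median level was 4.31 log2 CPM for the genes that rose, 6.71 for those that fell and 4.84 for all genes tested, and the median standard errors of the log2 changes were 0.17, 0.10 and 0.14. Protein coding genes made up 68 of the 75 (90.7%, against 94.4% of all genes tested). The list was spread over 17 chromosomes, with 8 members on chromosome 2 (0.84% of its 952 genes tested) and 7 on chromosome 10 (1.2% of 584), against 0.64% overall.

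*Nacc2*, which encodes a BTB-domain repressor that recruits NuRD, fell most. It lies on chromosome 2 from 26055535 to 26122811 (GRCm38, the mm10 assembly). Its normalized counts were 570 and 614 in wild type, 58.7 and 60.2 in heterozygous and 28.5 and 34.8 in homozygous T cells. On the log2 scale the heterozygous libraries were thus nearer to the homozygous ones than to wild type, and the groups did not overlap. The log2 change in carriers was -3.69 (standard error 0.23, FDR = 2.39e-05), 12.9-fold lower. The homozygous libraries were lower than the heterozygous ones by a log2 difference of -0.92 (95% interval -1.49 to -0.35), an interval that held neither 0 nor the value of an additive gene.

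*Ms4a4c*, a membrane-spanning protein of the MS4A family, had counts of 204 and 177 in wild type, 46.4 and 34.4 in heterozygous and 26.8 and 37.0 in homozygous T cells. The carriers of both genotypes were intermingled, all well under wild type. Its log2 change was -2.39 (standard error 0.23, FDR = 0.00145), and the homozygous minus heterozygous difference was -0.37 (95% interval -1.09 to 0.35). *H2-Q6*, a non-classical MHC class I gene of the Qa region, moved the other way. It had 1296 and 1475 counts in wild type, 4064 and 5658 in heterozygous and 5672 and 5763 in homozygous T cells. One heterozygous library stood lower than the other 3 carriers, all of which were far above wild type. The log2 change was 1.93 (standard error 0.14, FDR = 0.000421), 3.81-fold. *Ms4a4c* and *H2-Q6* belong to families with near-identical copies, between which reads could have been split or dropped, so their counts are uncertain.

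*Nacc2*, *Ms4a4c* and *H2-Q6* were the 3 genes that stayed in the alike list in each of 16 alternative fits, those that left out a library included, and for that reason their promoters are shown. Each is the window from 250 bases before to 50 bases after a transcription start in RefSeq, on the gene's strand, from GRCm38.p6. Capitals mark GGGAA on either strand (TTCCC where it is on the other), the core of the Ikaros family's motif. *H2-Q6* is shown from chr17:35424600-35424899 (plus strand), *Ms4a4c* from chr19:11407411-11407710 (plus strand), and *Nacc2* from chr2:26122762-26123061 and, for an inner start, chr2:26092347-26092646 (both minus strand). The *Ms4a4c* window lies inside the gene as annotated (11404717 to 11427246), so it too is at an inner start.
H2-Q6: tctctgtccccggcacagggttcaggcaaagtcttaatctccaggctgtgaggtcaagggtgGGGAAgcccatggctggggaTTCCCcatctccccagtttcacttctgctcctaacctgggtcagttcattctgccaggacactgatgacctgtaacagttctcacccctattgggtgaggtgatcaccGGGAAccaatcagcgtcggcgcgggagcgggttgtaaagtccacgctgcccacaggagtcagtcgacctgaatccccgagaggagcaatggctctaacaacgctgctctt
Ms4a4c: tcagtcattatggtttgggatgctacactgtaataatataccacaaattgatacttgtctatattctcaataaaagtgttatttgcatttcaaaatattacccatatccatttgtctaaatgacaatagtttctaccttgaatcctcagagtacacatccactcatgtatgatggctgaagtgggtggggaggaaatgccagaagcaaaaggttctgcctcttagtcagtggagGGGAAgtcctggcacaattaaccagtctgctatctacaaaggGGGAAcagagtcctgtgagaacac
Nacc2 (outer start): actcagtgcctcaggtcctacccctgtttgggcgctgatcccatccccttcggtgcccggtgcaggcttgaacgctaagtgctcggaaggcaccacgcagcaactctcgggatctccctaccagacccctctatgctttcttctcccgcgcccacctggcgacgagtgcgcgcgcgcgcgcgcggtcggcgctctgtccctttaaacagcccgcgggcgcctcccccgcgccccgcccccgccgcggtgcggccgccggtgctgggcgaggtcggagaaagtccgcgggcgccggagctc
Nacc2 (inner start): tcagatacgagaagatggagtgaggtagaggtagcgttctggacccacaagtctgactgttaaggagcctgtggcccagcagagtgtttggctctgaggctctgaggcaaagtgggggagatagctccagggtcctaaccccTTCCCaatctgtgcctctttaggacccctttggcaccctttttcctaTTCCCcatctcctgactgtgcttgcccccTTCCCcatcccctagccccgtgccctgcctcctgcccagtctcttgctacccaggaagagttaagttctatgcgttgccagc

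The *H2-Q6* window held 3 matches, the *Ms4a4c* window 2, the outer *Nacc2* window 0 and the inner one 3. These short letters are common. GGGAA was in 67.5% of the 83 promoters matched to 57 of the 75 alike genes, and in 64.2% of 11768 promoters of the genes tested. The longer TGGGAA, which contains it, was in 27.7% and 22.9%. The windows that hold the letters were thus nearly as common among all genes tested, and a match does not show that Aiolos binds there.

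Immune surface and secreted proteins were among the genes that fell most. *Ly6c1* encodes the GPI-anchored antigen Ly6C on T cells. Its counts were 1323 and 1146 in wild type, 497 and 550 in heterozygous and 604 and 399 in homozygous T cells. The heterozygous libraries lay between the homozygous ones, and all were below wild type. Its log2 change was -1.26 (standard error 0.14, FDR = 0.00449), with a difference between the carrier genotypes of -0.05 (95% interval -0.42 to 0.32). Copies of the *Ly6* family are near-identical in part, which leaves its count uncertain. *Lbp*, which encodes a carrier of bacterial lipopolysaccharide, had 148 and 367 counts in wild type, 44.7 and 47.8 in heterozygous and 82.9 and 41.3 in homozygous T cells. Wild-type replicates differed more than those of the other genotypes, and the log2 change was -2.27 (standard error 0.37, FDR = 0.0226). *Itga6*, the integrin alpha 6 chain of laminin receptors, had 3904 and 4431 counts in wild type, 2935 and 2593 in heterozygous and 2601 and 2403 in homozygous T cells. Carriers were lower by a log2 change of -0.66 (standard error 0.10, FDR = 0.0150).

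*Dusp2*, a nuclear phosphatase that switches off ERK, was at 5858 and 5921 in wild type. It was at 3607 and 2768 in heterozygous and at 3578 and 3297 in homozygous T cells. The homozygous libraries lay inside the range of the heterozygous ones, and the log2 change was -0.83 (standard error 0.11, FDR = 0.00902). *Akap12*, a scaffold that anchors protein kinase A, was at 415 and 384 in wild type and between 211 and 223 in all 4 carriers, a log2 change of -0.88 (standard error 0.12, FDR = 0.0108). *Nfatc2*, a transcription factor that enters the nucleus on calcium signals, was at 1634 and 1680 in wild type, 1179 and 1211 in heterozygous and 1275 and 1312 in homozygous T cells. It was lower by a log2 change of -0.41 (standard error 0.08, FDR = 0.0469), with the heterozygous libraries lowest.

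The other named falls included genes best known outside lymphocytes and RNAs that encode no protein. *Chrna2*, a nicotinic acetylcholine receptor subunit, had 280 and 300 counts in wild type and 114 to 158 in carriers (log2 change -1.17, -1.24 in homozygous T cells alone, FDR = 0.0129). *Arc*, known for its part at neuronal synapses, had 627 and 673 against 258 to 437 (log2 change -0.93, -1.06 in homozygous T cells alone, FDR = 0.0405). The pseudogene *Bambi-ps1*, derived from the gene of a TGF-beta decoy receptor, had 602 and 672 against 310 to 370 (log2 change -0.92, -0.97 in homozygous T cells alone, FDR = 0.00762). In all 3 genes the heterozygous and homozygous libraries overlapped each other and neither overlapped wild type. The long noncoding RNA genes *Gm13546* and *1810041H14Rik* fell by log2 changes of -1.24 (FDR = 0.0404) and -0.89 (FDR = 0.0496).

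**Figure D2:**
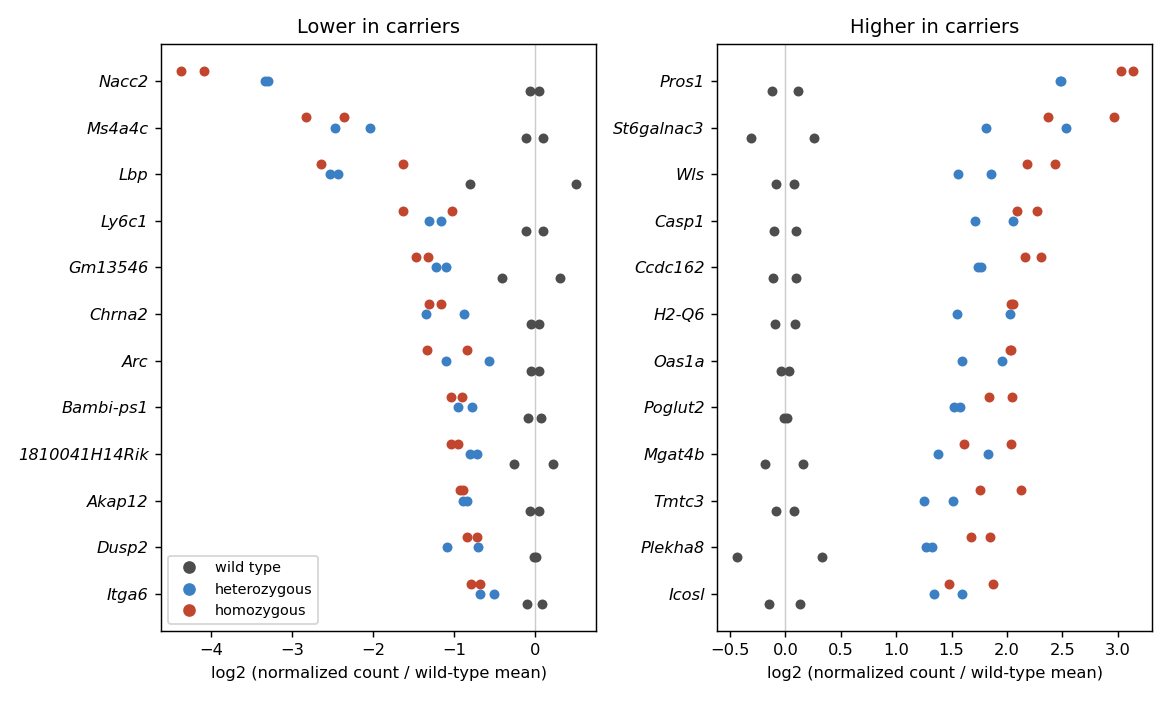
Normalized count in each library relative to the mean of the 2 wild-type libraries (x axis, log2) for the 12 largest falls (left) and the 12 largest rises (right) of the alike list with a mean of at least 1 log2 CPM. Each dot is 1 library. The list requires the 4 carrier libraries to lie to 1 side of both wild-type libraries. *Lbp* has the widest gap between its wild-type libraries.

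Several further members were named after their values were seen. *Atp1b1*, which encodes a beta subunit of the sodium pump, had 2395 and 1960 counts in wild type, 1499 and 1584 in heterozygous and 1381 and 1600 in homozygous T cells. The carrier genotypes overlapped each other and not wild type, and the log2 change was -0.52 (standard error 0.10, FDR = 0.0450). Exons of *Atp1b1* overlap *Nme7* on the opposite strand, and whether counting used strand is not stated.

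Members that act in cell signalling through kinases or cyclic AMP were also lower. *Sik1*, a kinase induced by cyclic AMP, was at 3434 and 3876 in wild type and 2306 to 2678 in carriers (log2 change -0.60, -0.65 in homozygous T cells alone, FDR = 0.0215). *Adcy6*, an adenylyl cyclase, was at 2406 and 2654 against 1577 to 1959 (log2 change -0.58, -0.67 in homozygous T cells alone, FDR = 0.0347). *Vipr1*, a receptor for vasoactive intestinal peptide, was at 4712 and 5143 against 3292 to 3777 (log2 change -0.46, -0.48 in homozygous T cells alone, FDR = 0.0417). In *Adcy6* and in *Sik1*, heterozygous replicate 2 stood above the other 3 carriers, at 1959 and 2678. The kinase gene *Sgk1*, which acts on ion transport, was at 2441 and 2493 against 1693 to 1833 (log2 change -0.50, -0.54 in homozygous T cells alone, FDR = 0.0217). *Trat1*, an adaptor that stabilises the T cell receptor complex at the surface, was at 2869 and 3357 against 1949 to 2272 (log2 change -0.58, -0.64 in homozygous T cells alone, FDR = 0.0231). These genes were picked from the list by their known roles, and no enrichment was tested.

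Among the genes that rose, *Oas1a*, an enzyme that activates RNase L on double-stranded RNA, had 81.6 and 85.9 counts in wild type, 325 and 252 in heterozygous and 345 and 341 in homozygous T cells. The change was 1.91 on the log2 scale (standard error 0.21, FDR = 0.00293), and the *Oas1* genes are near-identical copies. *Casp1*, the caspase of inflammasomes, had 34.4 and 30.0 in wild type, 105 and 134 in heterozygous and 137 and 155 in homozygous T cells. Its log2 change was 2.04 (standard error 0.31, FDR = 0.0108), and the difference between the carrier genotypes was 0.29 (95% interval -0.14 to 0.72). *Bst2*, or tetherin, which holds budding virus at the cell surface, had 677 and 662 in wild type, 953 and 851 in heterozygous and 968 and 970 in homozygous T cells. It rose by less, 0.48 on the log2 scale (standard error 0.10, FDR = 0.0469).

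*Pros1* encodes protein S, an anticoagulant that is also a ligand of the TAM receptor kinases. It had 12.7 and 14.98 counts in wild type, 78.0 and 77.4 in heterozygous and 113 and 122 in homozygous T cells. The carrier genotypes did not overlap each other, and the log2 change was 2.78 (standard error 0.50, FDR = 0.0142). *Wls*, the escort of Wnt ligands to the surface, had 138 and 123 in wild type, 470 and 383 in heterozygous and 592 and 702 in homozygous T cells. Its log2 change was 2.05 (standard error 0.26, FDR = 0.00902). *Icosl*, the ligand of the costimulatory receptor ICOS, had 134 and 162 in wild type, 374 and 446 in heterozygous and 543 and 411 in homozygous T cells. The carrier genotypes overlapped, and the log2 change was 1.58 (standard error 0.19, FDR = 0.00718).

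Enzymes that add or transfer sugars were among the 12 largest rises. *St6galnac3*, a sialyltransferase, had 11.5 and 17.0 counts in wild type and 49.9 to 111 in carriers (log2 change 2.41, 2.63 in homozygous T cells alone, FDR = 0.0423). *Poglut2*, which adds glucose to EGF repeats, had 49.7 and 48.9 against 141 to 203 (log2 change 1.75, 1.94 in homozygous T cells alone, FDR = 0.0132). *Mgat4b*, which branches N-glycans, had 43.3 and 54.9 against 128 to 202 (log2 change 1.72, 1.84 in homozygous T cells alone, FDR = 0.0217). In these 3 genes the lowest carrier library was above the highest wild-type library by more than the range of wild type. *Tmtc3*, an O-mannosyltransferase, had 45.9 and 40.9 against 103 to 189 (log2 change 1.69, 1.95 in homozygous T cells alone, FDR = 0.0404). *Plekha8*, which carries glucosylceramide in the Golgi, had 40.8 and 23.96 against 78.0 to 117 (log2 change 1.59, 1.81 in homozygous T cells alone, FDR = 0.0478), and its exons overlap *Fkbp14* on the other strand. *Ccdc162* had 24.2 and 28.0 against 87.0 to 129 (log2 change 1.99, 2.21 in homozygous T cells alone, FDR = 0.0220). No list of such enzymes was fixed or tested.

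**Figure D3:**
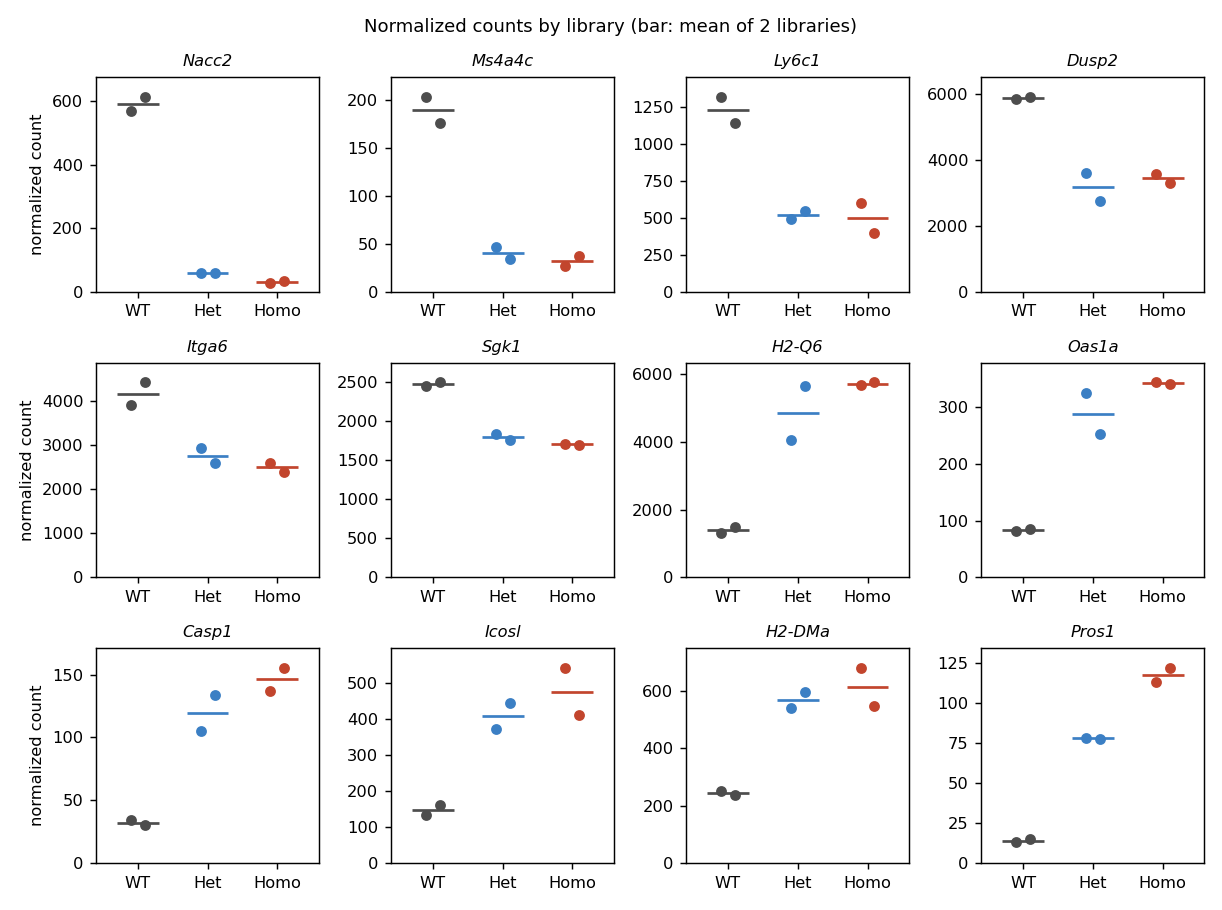
Normalized counts (y axis, from 0) of 12 genes of the alike list in wild-type (WT), heterozygous (Het) and homozygous (Homo) T cells; dots are libraries and bars are means of 2. In the upper panels *Nacc2* falls from 570 and 614 to 28.5 to 60.2 in carriers; in the lower panels *Casp1* rises from 34.4 and 30.0 to 105 to 155.

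Other members that rose were named after their values were seen. *H2-DMa*, a chain of the chaperone that loads peptide on MHC class II, had 252 and 238 counts in wild type, 540 and 596 in heterozygous and 681 and 549 in homozygous T cells. Its log2 change was 1.28 (standard error 0.14, FDR = 0.00381), and its exons overlap *Brd2* on the opposite strand. *Pou2f2*, the Oct-2 factor of lymphocytes, had 345 and 269 in wild type, 448 and 556 in heterozygous and 551 and 550 in homozygous T cells, a log2 change of 0.79 (standard error 0.14, FDR = 0.0405). These genes, like *Icosl*, are also used by B cells. The summed level of 19 B cell markers was 248 and 390 CPM in wild type, 662 and 1080 in heterozygous and 252 and 168 in homozygous T cells. In the homozygous libraries, where the sum of these markers was within or under the range of wild type, the log2 changes were 1.34 for *H2-DMa*, 0.85 for *Pou2f2* and 1.69 for *Icosl*.

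Among the remaining rises were the long noncoding RNAs *Neat1*, the scaffold of paraspeckles, and *AW112010*. *Neat1* had 4240 and 4533 counts in wild type, 6047 and 7701 in heterozygous and 6275 and 6218 in homozygous T cells (log2 change 0.58, 0.51 in homozygous T cells alone, FDR = 0.0423). *AW112010* had 506 and 463 in wild type and 753 to 883 in carriers (log2 change 0.80, 0.86 in homozygous T cells alone, FDR = 0.0113). *Abcb1a* and *Abcg2*, which encode drug efflux pumps, changed by 1.25 (FDR = 0.0423) and 0.92 (FDR = 0.0469) on the log2 scale. *Grn*, the progranulin gene, had 89.2 and 150 in wild type and 246 to 334 in carriers (log2 change 1.23, 1.33 in homozygous T cells alone, FDR = 0.0327), and overlaps *Fam171a2* on the opposite strand.

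The difference between 2 and 1 mutant alleles was estimated for each alike gene in the fit with a level per genotype. The 95% interval of that difference held 0 and not the additive value in 58 of 75 genes, held both in 9 and held neither in 8. The 8 were *Pros1*, *Wls*, *Ccdc162*, *Poglut2*, *Tmtc3*, *Zfp629*, *Plcb3* and *Nacc2*. In all of them the homozygous libraries were further out, by less than a gene additive in log2 would be. Equal steps in counts were not tested. Homozygous libraries were further out than heterozygous ones in 59 of the 75, with a median ratio of 0.14 of the mean change. None of the 75 was called between homozygous and heterozygous by edgeR at an FDR under 0.05, while 8 had an unadjusted p under 0.05 and DESeq2 called 1. Among all genes tested 188 were called (1.61%), and among the 34 graded genes 6. The limit of 1/3 is set on this same difference, so the interval counts, the median ratio and that 0 are shaped by the choice. They describe the list, and nothing is read from them on whether a response is dominant. The closest to equal were *Ccdc107* (difference 0.01), *Mrpl52* (0.01) and *Dop1a* (-0.01), with intervals of -0.35 to 0.37, -0.27 to 0.30 and -0.28 to 0.26. Exons of *Ccdc107* and *Dop1a* overlap *Rmrp* and *Pgm3* on the opposite strand.

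**Figure D4:**
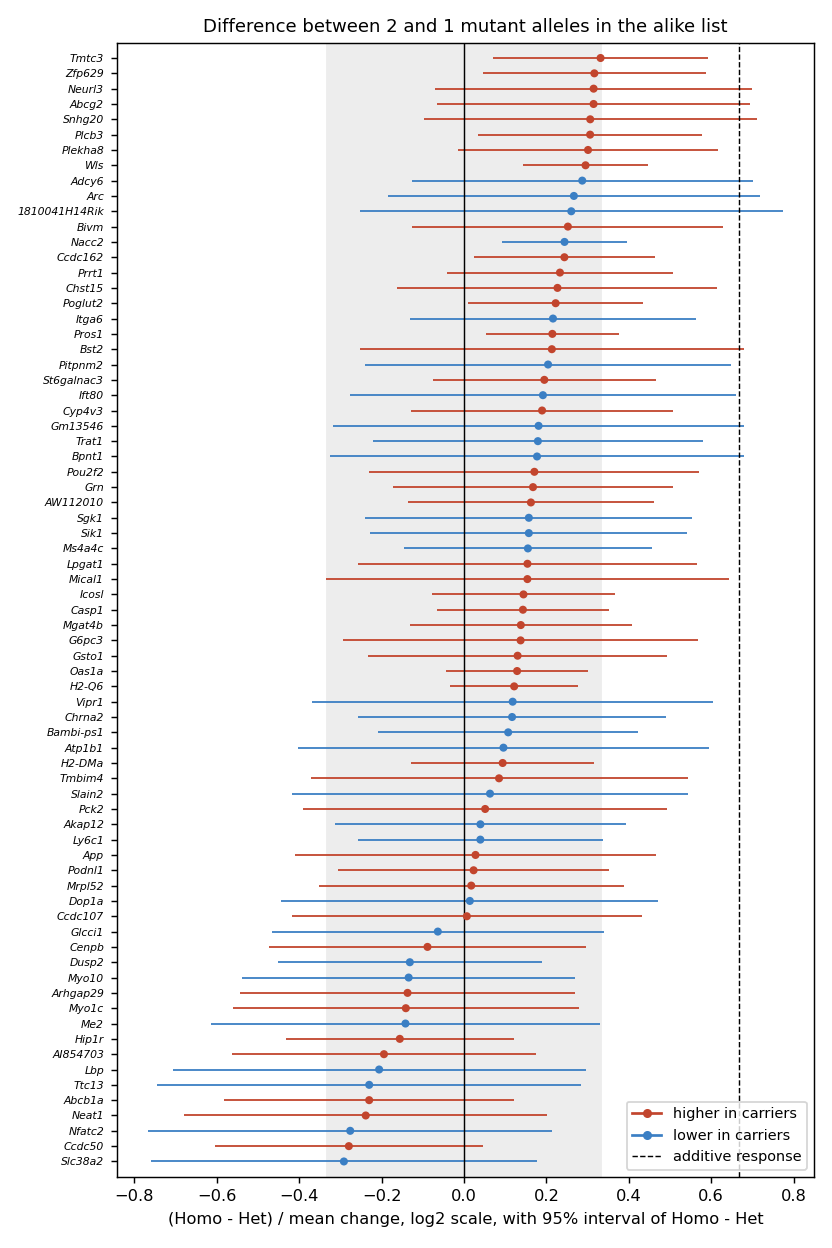
Difference between homozygous and heterozygous as a share of their mean log2 change (x axis) for 73 of the 75 alike genes, with the 95% interval of the difference; red genes rose and blue genes fell in carriers. Shading marks the limit of 1/3 that chose the list, the solid line is an equal change and the dashed line the additive value of 2/3, which lies inside 9 intervals.

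The graded genes show what the alike list leaves out. *Dntt*, the terminal transferase of V(D)J joining, had 130 and 118 counts in wild type, 19.3 and 41.1 in heterozygous and 3.45 and 8.70 in homozygous T cells. *Fcer2a*, which encodes CD23 of B cells, had 115 and 210, then 15.8 and 33.5, then 5.18 and 8.70. *Baiap3* had 33.1 and 35.9, then 116 and 111, then 239 and 237. In these 3 the libraries of each genotype stood apart from those of the others, and the homozygous minus heterozygous differences were -2.34, -1.83 and 1.07 on the log2 scale. *Capg*, an actin-capping protein, had 445 and 422, then 797 and 765, then 668 and 641, and was furthest from wild type in heterozygotes.

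Genes on either side of each limit of the list had values close to each other. *Ttc13* (FDR = 0.0497) and *1810041H14Rik* (0.0496) were just inside the FDR threshold and *F2rl1* (0.0505) and *Parp12* (0.0505) just outside. EdgeR's fit with averaged genotypes called *F2rl1* (FDR = 0.0199) and *Parp12* (FDR = 0.0151) too. *Parp12*, an interferon-induced ADP-ribosyltransferase, had 189 and 178 counts in wild type, 297 and 287 in heterozygous and 285 and 359 in homozygous T cells. *F2rl1*, a protease-activated receptor, had 1276 and 1247 in wild type and 836 to 974 in carriers. On the scale of the difference between genotypes, *Tmtc3* (0.331) and *Zfp629* (0.316) were just inside 1/3, and *Lars2* (-0.334) and *Il18r1* (0.336) just outside. *Il18r1*, the interleukin-18 receptor chain, had 1016 and 1232 in wild type, 1728 and 1769 in heterozygous and 2071 and 2106 in homozygous T cells, a log2 change of 0.77 in carriers.

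The Ikaros family itself was not called in carriers (edgeR, FDR of 0.085 or more). *Ikzf3* had 2331 and 2292 counts in wild type, 2489 and 2258 in heterozygous and 2925 and 3006 in homozygous T cells. Counts per gene do not tell the N159S transcript from the wild-type one, so they do not check the genotype labels. *Ikzf1*, which encodes Ikaros, had 15814 and 14621 in wild type and 11763 to 12540 in carriers. Its 4 carrier libraries lay under both wild-type ones, with a log2 change of -0.33 (standard error 0.08, FDR = 0.0850) and no call. *Ikzf2*, *Ikzf4* and *Ikzf5* had log2 changes of 0.55, 0.46 and -0.12 (FDR of 0.267, 0.260 and 0.561). In edgeR's fit with a level per genotype, *Ikzf2* changed by 0.83 in heterozygous (FDR = 0.0232) and 0.20 in homozygous T cells (FDR = 0.579). *Ikzf3* changed by 0.04 in heterozygous (FDR = 0.877) and 0.36 in homozygous T cells (FDR = 0.0469). Of 17 tested genes for the Ikaros family and NuRD subunits, 0 were called in the pooled carriers, against 0.948% of all genes tested. Their median log2 change was -0.05. Of these 17, 4 had an unadjusted p under 0.05, DESeq2 called 1 and the fit with averaged genotypes called none. Of all 11713 genes tested, these counts were 1904, 484 and 529.

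Counts in the gene lists are to be read against the 0.948% of all genes called by edgeR in carriers. Of the 11713 genes tested, DESeq2 called 484, the fit with averaged genotypes 529, and 1904 had an unadjusted p under 0.05 by edgeR. Each list holds too few genes for its share to be precise. Of 29 interferon-stimulated genes, edgeR called 2 higher (*Oas1a* and *Bst2*) and 0 lower, DESeq2 called 7, 9 had an unadjusted p under 0.05, and the median log2 change was 0.15. *Ifi44* (1.20, FDR = 0.0852), *Oasl2* (0.88, FDR = 0.0923) and *Ifih1* (0.44, FDR = 0.0809) were not called, nor was *Isg15* (0.17), all named after their values were seen. Of the 29, 21 had a positive log2 change and 8 a negative one, and 6094 of the 11713 genes tested had a positive one. The summed level of the list was 2230 and 2230 CPM in wild type, 2630 and 2110 in heterozygous and 2140 and 2180 in homozygous libraries, the last under wild type. In the fit with averaged genotypes 5 of the 29 were called higher and 1 lower. Of 31 genes of T cell receptor signalling, edgeR called 1, *Nfatc2*, while DESeq2 called 4, the fit with averaged genotypes 2, and 7 had an unadjusted p under 0.05. The median log2 change of these 31 was -0.11, with 26 below 0 and 13 with all carriers under both wild-type libraries. Of all 11713 genes tested, 5619 were below 0 and 1509 (12.9%) had all carriers under both wild-type libraries. Of 26 tested migration and adhesion receptors, edgeR called 1, *Itga6*, while DESeq2 called 3, the fit with averaged genotypes 4, and 10 had an unadjusted p under 0.05.

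Immediate early genes, induced within minutes of receptor signals, had 2 called lower by edgeR of 21 tested, *Dusp2* in the alike list and *Nr4a3* among the graded genes, against 3 calls by DESeq2 and 4 in the fit with averaged genotypes. *Egr1* (-0.35), *Junb* (-0.14) and *Nr4a1* (0.14) had smaller log2 changes and were not called. *Arc* and *Sik1*, which were also lower in carriers, were not in this list, so these counts do not cover them. Of 20 tested genes of MHC class I and peptide loading, *H2-Q6* alone was called by edgeR, with 1 call each by DESeq2 and the fit with averaged genotypes. A positive log2 change was seen in 16 of the 20, as in 6094 of the 11713 genes tested, and the median of the 20 was 0.12. Of 19 tested naive and CD4 T cell markers edgeR called 0, while 8 had an unadjusted p under 0.05, DESeq2 called 2 and the fit with averaged genotypes called 4, all lower. *Il7r*, the gene of CD127, by which cells were sorted, was close to a call in the pooled fit (edgeR, FDR = 0.0592), with 19123 and 18058 counts in wild type and 13140 to 15241 in carriers. EdgeR's fit with averaged genotypes called *Il7r* lower (FDR = 0.0207). *Cd44*, used for the same sort, had 480 and 301 in wild type and 236 to 646 in carriers, which overlapped, and its log2 change of 0.06 turned to -0.26 without wild-type replicate 2 or without heterozygous replicate 2.

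Of the remaining lists, 23 tested cytokine receptors held 1 edgeR call (*Il18r1*, graded), 10 regulatory T cell markers held 1 (*Capg*) and 15 thymocyte genes held 1 (*Dntt*). DESeq2 called 3, 1 and 2 of these, and the fit with averaged genotypes 4, 1 and 5. EdgeR called 0 of 19 cytokine signalling genes, 0 of 27 antigen experience and effector genes, 0 of 23 costimulatory and checkpoint receptors, 0 of 18 Notch receptors and targets and 0 of 14 Bcl2 family genes. In that order, 3, 10, 7, 2 and 4 of their genes had an unadjusted p under 0.05. DESeq2 called 3, 4, 3, 0 and 3 of them, and the fit with averaged genotypes 3, 7, 5, 0 and 3. Apart from *H2-Q6*, *Oas1a*, *Bst2*, *Nfatc2*, *Itga6* and *Dusp2*, no member of the alike list was in any of these lists.

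Markers of T cells and of other cells were checked across the libraries. The 19 naive and CD4 T cell markers summed to 12300 and 11600 CPM in wild type, 10800 and 10900 in heterozygous and 9990 and 10600 in homozygous libraries, so all 4 carriers lay under both wild-type libraries. The sum of B cell markers stood above wild type in both heterozygous libraries and not in the homozygous ones. In the pooled carriers 18 of the 19 had a positive log2 change, as had 6094 of the 11713 genes tested. None of the 19 was above both wild-type libraries in all 4 carriers. Regulatory T cell markers were also highest in heterozygous libraries, at 262 and 232 CPM against 164 and 163 in wild type and 176 and 173 in homozygous ones. Myeloid markers were at 60.8 to 86.8 CPM and erythroid ones at 1.89 to 10.9 CPM, and wild type held the lowest erythroid value. CD8 and NK cytotoxic markers were at 69.0 and 72.0 CPM in wild type, 61.3 and 57.6 in heterozygous and 45.4 and 42.1 in homozygous libraries. In bulk RNA, fewer cells of a type and less RNA per cell cannot be told apart, and the part of these cells in the alike list was not tested beyond the values above. Of the 19 B cell markers edgeR called 1, *Fcer2a*, which was lower in carriers. EdgeR called 0 of 11 myeloid, 0 of 7 CD8 and NK and 0 of 4 erythroid markers, with 2, 3 and 0 at an unadjusted p under 0.05 and 0 called by DESeq2.

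**Figure D5:**
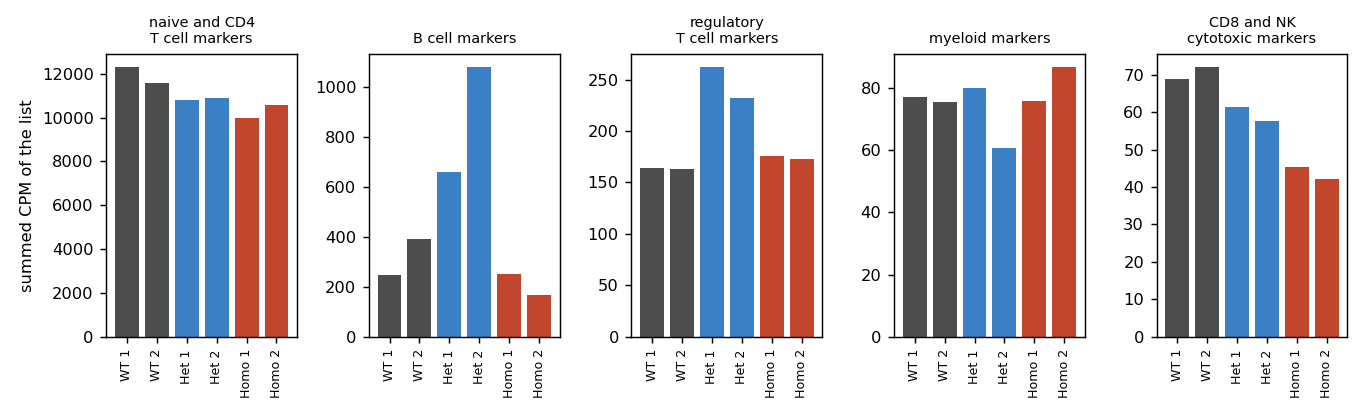
Summed CPM (y axis, from 0) of 5 marker lists in each of the 6 libraries, grey for wild type, blue for heterozygous and red for homozygous. B cell markers reach 662 and 1080 CPM in the heterozygous libraries and 168 to 390 CPM in the others.

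Some members lie next to each other. *Poglut2* and *Bivm* on chromosome 1 are 77 bases apart, and both rose, by 1.75 and 0.84 on the log2 scale. *Mical1* and *Ccdc162* on chromosome 10 are 51814 bases apart and rose by 0.46 and 1.99. *Prrt1*, with *H2-DMa* and *H2-Q6*, lies in the MHC region of chromosome 17 and rose by 1.17. Other neighbours moved in opposite directions, such as *AW112010* (0.80) and *Ms4a4c* (-2.39) on chromosome 19, 354151 bases apart. Of the 75 genes, 15 share exon sequence with another counted gene, 12 of them on the opposite strand.

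The list rests on 2 wild-type libraries. Without wild-type replicate 1 the same test called 5 genes, 4 of them alike, and without replicate 2 it called 3, all alike, with the remaining wild-type library assumed to vary as the carriers do. For 1 gene at a time, an exact two-sided permutation of 4 against 2 libraries gives p = 0.0667 at the least, and calls were possible because edgeR shares information on spread between genes.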

How the data were processed

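Poly(A)-selected RNA-seq of sorted splenic T cells was analysed, in 2 libraries for each of 3 genotypes. The B cell libraries were not used here. The authors trimmed reads with Trimmomatic (0.38.1), mapped them to mm10 with HISAT2 (2.2.1), counted them on refGene genes with HTSeq (2.0.2) and deposited raw counts per gene. Whether counting used strand is not given in the sources used here. Reads on genes were 50.7 to 57.7% of entries in a library, and the other entries (no gene, ambiguous, low quality, not aligned, not unique) were left out.

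EdgeR 4.0.16 in R 4.3.3 was used on the counts. Genes passing filterByExpr on genotype (minimum count 10, minimum total 15) were scaled by TMM, and the 11713 autosomal ones were fitted. The first fit pooled heterozygous and homozygous libraries as carriers. The second had a level per genotype and gave each genotype's change and their difference, with 95% intervals from standard errors of the quasi-likelihood fit. P-values were adjusted by Benjamini-Hochberg over the 11713 genes. Log2 CPM used a prior count of 2. The steps were run on simulated counts with the same spread in every gene and large changes in well-counted genes only. That checks the code and not the calls in these data, where many changes are smaller and some genes have few counts. Replicate numbers were not taken as pairs, as the labels do not tie them to anything shared and correlations of same-numbered libraries were -0.167, -0.223 and 0.232.

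Genes named were the 12 largest rises and falls of the alike list with at least 1 log2 CPM, its members in 19 gene lists, the Ikaros family, the genes nearest each limit, *Il7r*, *Cd44* and 3 graded genes. Other genes were named after their values were seen, as the text says, or stand for their list or their marker role. The members and lists were chosen with earlier results of these data known. Alternatives were DESeq2 1.42.0, its size factors, other filters, scalings, tests, limits and terms, and each library left out. Leaving out both heterozygous libraries was added after seeing the data. Coordinates are from GENCODE and RefSeq on GRCm38. Some genes of the lists are among the genes tested and counted but are not reported here by name.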

Additional observations from a re-analysis of the deposited data

Results flagged for a closer look

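In 8 genes of the alike list, 1 of the 4 carrier libraries stood far from the other 3. The measure is its gap to the nearest carrier divided by the range of the carriers, which passed Dixon's 95% critical value for 4 values, a limit that chance passes in about 1 in 20 groups of libraries. The 8 were 10.7% of the list, and 4.41% of all genes tested passed the same limit. Heterozygous replicate 2 was highest for *Adcy6* (0.893), *Neat1* (0.862) and *Sik1* (0.907), and was lowest for *Bst2* (0.859). Heterozygous replicate 1 was lowest for *H2-Q6* (0.938) and *Pou2f2* (0.943). Homozygous replicate 1 was highest for *Lbp* (0.844) and *Mical1* (0.885). In each of these genes the library that stood apart was on the same side of both wild-type libraries as the other carriers, which the list requires.

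*Xist*, which was outside the genes tested, was present in both heterozygous libraries at 737 and 846 CPM, against 0.769 and 0.988 CPM in wild type and 1.96 and 1.24 CPM in homozygous libraries. It is the RNA that silences an X chromosome in female cells. Genotype and this difference cannot be told apart in the heterozygous libraries.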

How the results depend on the processing

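The number of calls depended on the test and on the wild-type libraries, and among the named genes the direction turned for *Cd44*, which was not called, at -0.2556 without wild-type replicate 2 and -0.2622 without heterozygous replicate 2 (the highest value was 0.4195, without wild-type replicate 1), and for no other. Against 111 calls and 75 alike genes, averaging the genotypes in the second fit gave 529 and 202, and DESeq2 484 and 255. The likelihood ratio test gave 520 and 274, and no filter on low counts 406 and 190. The 2-level term for more or fewer genes detected gave 180 and 139, and an FDR under 0.01 gave 12 and 11. Between homozygous and heterozygous, 188 genes were called, and 470 without the filter, 876 with the term for genes detected, 459 by the likelihood ratio test and 45 at an FDR under 0.01. Without the heterozygous libraries, homozygous against wild type, an alternative chosen after seeing the data, gave 745 calls. The cause was not tested for any of these.

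With the replicate number as a block (replicate block), carriers had 21 calls and 20 alike genes, all 20 in the list of 75, and homozygous against heterozygous had 155 calls. Same-numbered libraries did not deviate together in every pair of genotypes (correlations of -0.167, -0.223 and 0.232). By these signs wild-type replicate 1 deviated with replicate 2 of the other genotypes. Genes detected were 16873 in wild-type replicate 1, 18147 in heterozygous and 17571 in homozygous replicate 2. They were 15888 in wild-type replicate 2, 15079 in heterozygous and 14803 in homozygous replicate 1. What these libraries share and the cause of the lower count were not tested.

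Leaving out 1 library at a time gave 3 to 196 calls in carriers, 3 to 104 alike genes and 54 to 196 calls between homozygous and heterozygous. The lowest values for carriers came without wild-type replicate 2 (3 calls) and replicate 1 (5 calls). Without homozygous replicate 1 there were 50 calls and 37 alike genes, and without replicate 2 there were 35 and 33. Without heterozygous replicate 1 or 2 there were 161 and 196 calls. Limits of 1/4 and 1/2 in place of 1/3 gave 60 and 101 alike genes. Of the 75 genes, 3 were alike in all 16 alternative fits, 14 in all but those without a wild-type library, and 73 in at least 8. The other alternatives kept the counts within 1.5 times, and depth limits genes of few counts such as *Pros1*.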
